A study of Homo sapiens with 6 samples.

Results

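DPP4 and 7 related peptidases, FAP, DPP8, DPP9, PREP, DPP7, PRCP and DPP3, were examined in endothelial cells that had received EPC-Exos. Members were the probe sets whose platform annotation gave 1 of these symbols and no other, 16 probe sets for 8 genes, out of 49395 probe sets on the array and 18132 genes with a probe set of their own. The set was chosen by the log2 signal of DPP4, which was much lower with EPC-Exos than with PBS, and the others were added because they cleave next to proline or share the dipeptidyl peptidase name. The differences of all 8 between the groups are therefore descriptions, and no p-value is given for them.

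The cells were HMEC-1, a line of human dermal microvascular endothelial cells immortalised with a viral oncoprotein, kept in medium without serum. In 3 samples the cells had received EPC-Exos at 1e+11 particles per mL for 24 hours, and in 3 samples the same volume of PBS. The labels do not spell out EPC-Exos; from knowledge of the study they are exosomes, vesicles released by cells, of endothelial progenitor cells. Total RNA was hybridised to Affymetrix 3' expression arrays, 1 array per sample.

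Most peptidases cannot cut a peptide bond next to proline, and these enzymes, apart from the less selective DPP3, are among the few that can. DPP4 removes the first pair of residues from peptides whose second residue is proline or alanine, and so shortens incretin hormones, neuropeptides and chemokines. It is anchored in the plasma membrane, is also shed, and on T cells is known as CD26. FAP, its closest relative, is a membrane protease of activated fibroblasts that also cuts within chains after glycine and proline. DPP8 and DPP9 work in the cytosol, where they hold the inflammasome sensors NLRP1 and CARD8 in check. PREP cuts short peptides in the cytosol, DPP7 and PRCP work in lysosomes and similar vesicles, and DPP3 is a zinc enzyme of separate descent that degrades angiotensins and enkephalins.

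Median log2 signals of the arrays lay between 6.25 and 6.34. Arrays of 1 group correlated at 0.997 over the probe sets that are not controls, against 0.988 to 0.989 between groups. No batch, culture day or scan date is given in the labels, so a batch that parts the groups and the treatment cannot be told apart. The labels do not say whether the 3 samples of a group were separate cultures, so errors and p-values cover the spread among these arrays alone and may reflect technical variation. As a guide to background, 17 Tag control probe sets without a human target had mean log2 signals of at most 4.97. Among the defining endothelial genes, the junction genes CDH5 (4.49 with EPC-Exos, 4.70 with PBS) and CLDN5 (3.67, 3.57) and the receptor gene TEK (4.09, 4.03) lay below that level in both groups, as did EMCN. The other 10 of the 14 endothelial markers lay above it in both groups, among them the guidance receptor gene ROBO4 (10.09 with EPC-Exos, 9.98 with PBS) and ENG, endoglin (9.96, 9.16).

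The main fit covered 11715 genes whose probe set reached a mean log2 signal of 5.45, the 40th percentile. A gene passed at a Benjamini-Hochberg adjusted p under 0.05 in limma, and 49.1% of the genes did, 21.7% upward and 27.3% downward. Of the 7 members tested, 3 passed, DPP4 and PRCP lower and DPP9 higher with EPC-Exos. DPP4 reached the filter only through its PBS arrays, with a mean of 7.91 against 4.92 with EPC-Exos. The set was chosen by the low signal of DPP4, so its pass was fixed in advance. The groups did not overlap in 4 of the 7 tested members and in 55.7% of all tested genes. The median log2 difference, EPC-Exos minus PBS, was -0.02 over the 7 members and -0.01 over all tested genes. FAP lay under the signal filter. The second rule of the series asks for a 1.5-fold change together with a raw p under 0.05. DPP4 alone of the 7 passed it, against 9.89% of all tested genes. Since DPP4 was chosen for its difference, this pass too is a description and no result.

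DPP4, the cell-surface dipeptidyl peptidase, had log2 signals of 4.96, 4.82 and 4.98 with EPC-Exos, against 8.0, 7.73 and 8.0 with PBS. Every EPC-Exos array was lower than every PBS array, by far more than the spread within either group. The difference of -2.99 ± 0.10 (moderated SE, n = 3 each) is a fold of 7.93 downward. The mean with EPC-Exos, 4.92 ± 0.088 (SD), lay below the highest Tag control signal, so this probe set could not be told from background there, and its fold can be too small and has no exact rank among other genes. In RNA of whole cultures, fewer cells that carry a transcript and less of it per cell cannot be told apart.

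The other DPP4 probe set gave a smaller difference. Its log2 signals were 5.05, 5.20 and 5.20 with EPC-Exos, against 7.12, 6.25 and 5.99 with PBS. The groups again did not overlap, and PBS replicate 1 stood above the other PBS arrays. The mean of 5.15 ± 0.090 with EPC-Exos and 6.45 ± 0.59 with PBS (SD, n = 3 each) differed by -1.30 ± 0.19 (SE). The EPC-Exos mean of this probe set lay a little above the highest Tag control signal. The probe set with the larger difference is of the _s_at kind, which can bind transcripts of related genes. Without _x_at and _s_at probe sets the difference of DPP4 was therefore -1.30, and with 64 added on the linear scale before taking log2 it was -1.69.

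**Figure D1:**
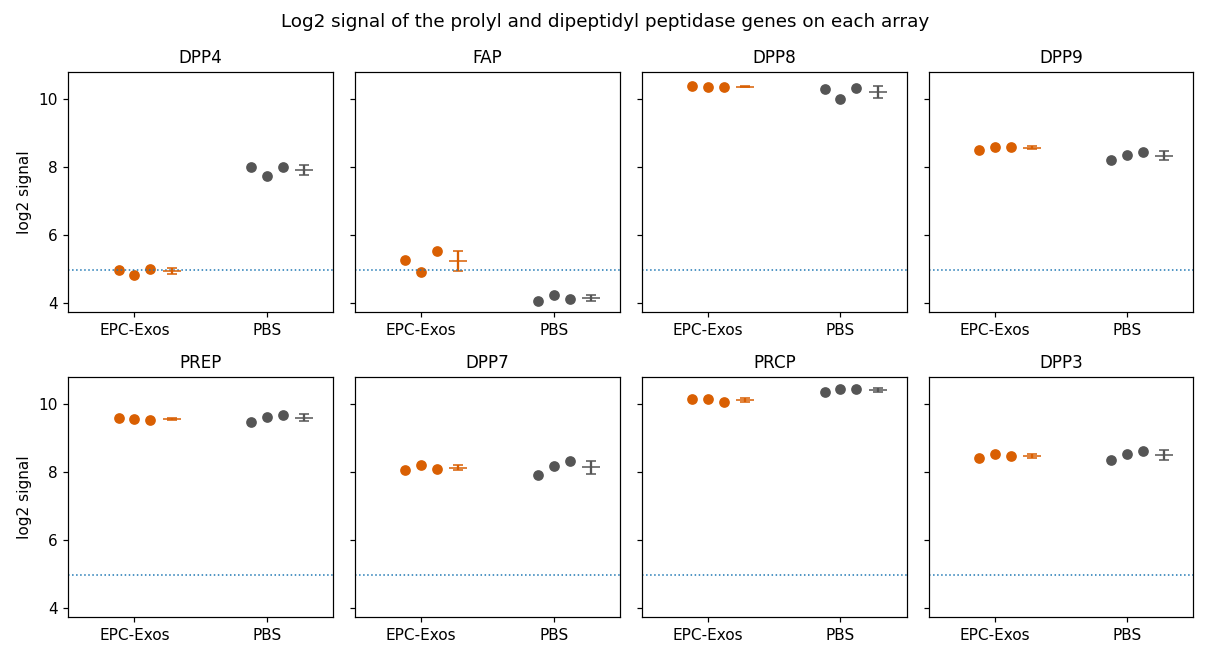
Log2 signal (vertical axis) of the 8 genes on the 3 EPC-Exos arrays (orange) and the 3 PBS arrays (grey), each gene by its brightest probe set; bars are mean ± SD and the dotted line is the highest mean Tag control signal of 4.97. DPP4 reached 4.82 to 4.98 with EPC-Exos and 7.73 to 8.0 with PBS, and FAP 4.91 to 5.51 with EPC-Exos and 4.06 to 4.23 with PBS, while the other 6 genes differed little.

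The 250 bases before the start of DPP4 and PRCP are shown because these were the 2 members that passed downward. Of the 8 genes, 6 were found in the promoter table of RefSeq (GRCh38.p14). Both genes lie on the minus strand, the DPP4 stretch at chr2:162074216-162074465 and the PRCP stretch at chr11:82900431-82900680, and each is written 5′ to 3′ as its gene is read. Capitals mark the GC box GGGCGG or its reverse complement CCGCCC, the kind of sequence that the factor SP1 binds.
DPP4: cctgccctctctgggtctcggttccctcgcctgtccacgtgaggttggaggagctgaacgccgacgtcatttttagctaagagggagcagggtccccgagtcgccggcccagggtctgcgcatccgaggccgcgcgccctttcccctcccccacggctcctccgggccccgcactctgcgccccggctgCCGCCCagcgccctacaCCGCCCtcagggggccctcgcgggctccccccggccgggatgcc
PRCP: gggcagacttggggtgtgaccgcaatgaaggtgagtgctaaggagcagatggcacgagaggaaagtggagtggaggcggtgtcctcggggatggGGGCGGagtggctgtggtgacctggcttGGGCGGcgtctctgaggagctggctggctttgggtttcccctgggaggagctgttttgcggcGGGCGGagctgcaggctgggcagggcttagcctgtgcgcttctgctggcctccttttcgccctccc

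The DPP4 stretch held 2 GC boxes and the PRCP stretch 3, and 42.6% of 35116 promoters of the same length held at least 1. No TATA box (TATAAA, in 10.7% of promoters) or STAT element (TTCNNNGAA, in 6.57%), searched on both strands, was found in either. The stretches of DPP8, DPP7 and DPP3 held 3, 2 and 2 GC boxes, and that of DPP9 held 0. The DPP4 stretch had 26 CpG pairs and a GC content of 73.6%, against 12 CpG pairs and 65.2% for PRCP. These matches describe the sequence and are not evidence of binding.

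FAP, the fibroblast protease, differed the other way. Its log2 signals were 5.26, 4.91 and 5.51 with EPC-Exos, against 4.06, 4.23 and 4.11 with PBS. Every EPC-Exos array was above every PBS array, with a wider spread among the EPC-Exos arrays. The means were 5.23 ± 0.30 with EPC-Exos and 4.13 ± 0.092 with PBS (SD, n = 3 each). All 3 PBS arrays and EPC-Exos replicate 2 lay below the highest Tag control signal, and the EPC-Exos mean only a little above it. In the fit without the filter the difference was 1.10 ± 0.14 (SE), a fold of 2.14 upward, and FAP passed there, where 14.4% of 18132 genes passed upward. With 16 or 64 added on the linear scale the difference was 0.68 or 0.32, so its size depends on how low signals are treated.

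Some cell type markers fell and others rose, where 21.7% of all tested genes passed upward and 27.3% downward. Of 9 fibroblast and pericyte markers 5 were tested, and 3 fell and 1 rose; without EPC-Exos replicate 2, 2 fell and 0 rose, and without _x_at and _s_at probe sets 1 of 3 tested fell and 1 rose. The matrix proteoglycan gene DCN had log2 signals of 5.40, 5.49 and 5.31 with EPC-Exos, against 7.60, 7.53 and 7.70 with PBS, and PDGFRB, a growth factor receptor gene of pericytes, averaged 6.46 ± 0.18 with EPC-Exos and 7.75 ± 0.25 with PBS. LUM, another matrix proteoglycan, lay under the filter and had 3.67 ± 0.044 with EPC-Exos and 5.97 ± 0.038 with PBS. TCF21 fell by 0.29 ± 0.11 (SE). THY1 rose, with means of 9.67 ± 0.061 with EPC-Exos and 9.44 ± 0.11 with PBS (SD). NOTCH3 differed by 0.17 ± 0.098 (SE) and did not pass. PDGFRA, CSPG4 and RGS5 lay under the filter with overlapping groups. Over the 9 markers the summed linear signal was 1157 to 1236 with EPC-Exos and 1290 to 1474 with PBS, and 2 of the 9 lay at or below the Tag level in both groups. Of 14 endothelial markers 8 were tested, 4 rose and 0 fell (summed signal 3041 to 3093 with EPC-Exos, 2154 to 2450 with PBS), and 4 lay at or below the Tag level. Of 7 epithelial markers 4 were tested, 3 fell and 0 rose (4730 to 4927 with EPC-Exos, 6924 to 7616 with PBS), and 2 lay at or below the Tag level, among them the adhesion gene CDH1. Without _x_at and _s_at probe sets only 1 epithelial marker was tested and 0 fell. Of the 9 leukocyte markers measured none was tested and 8 lay at or below the Tag level, among them PTPRC, which marks all leukocytes. The summed signal of these 9 markers was 164 to 182 with EPC-Exos and 164 to 167 with PBS. The part of the fibroblast, endothelial and epithelial markers in the differences of DPP4 and FAP was not tested.

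Among the cytosolic enzymes, DPP9 was slightly higher and DPP8 less clearly so. DPP9 had log2 signals of 8.51, 8.57 and 8.59 with EPC-Exos, against 8.19, 8.35 and 8.45 with PBS. The groups did not overlap, but the gap between the lowest EPC-Exos and the highest PBS array was small beside the spread of the PBS arrays. The difference of 0.23 ± 0.076 (SE, n = 3 each), a fold of 1.17, passed. It no longer passed without EPC-Exos replicate 2 (0.22), without EPC-Exos replicate 3 (0.21) or without PBS replicate 1 (0.16). The only DPP9 probe set is of the _x_at kind, so some of its signal can come from related transcripts.

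DPP8 had log2 signals of 10.39, 10.36 and 10.34 with EPC-Exos, against 10.30, 10.01 and 10.32 with PBS. No EPC-Exos array fell within the PBS range, yet the closest pair of arrays was nearly equal, and PBS replicate 2 was the low one. The difference of 0.15 ± 0.069 (SE) did not pass. It did so without PBS replicate 1 (0.20) or without PBS replicate 3 (0.21). A dimmer second DPP8 probe set gave 0.08 ± 0.12, with overlapping groups.

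PREP, the cytosolic prolyl oligopeptidase, had log2 signals of 9.60, 9.58 and 9.53 with EPC-Exos, against 9.49, 9.64 and 9.69 with PBS. The EPC-Exos arrays fell inside the PBS range, and the difference was -0.04 ± 0.063 (SE). The second PREP probe set had the opposite sign, 0.12 ± 0.075, again with overlapping groups, so the array gives no direction for this gene.

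PRCP, the lysosomal carboxypeptidase that shortens angiotensins and alpha-MSH, was lower with EPC-Exos. Its log2 signals were 10.16, 10.15 and 10.07 with EPC-Exos, against 10.35, 10.46 and 10.45 with PBS. The groups did not overlap, and the difference of -0.30 ± 0.053 (SE) was a fold of 1.23. A second probe set gave -0.32 ± 0.055 without overlap. The third, with 9.31, 9.57 and 9.24 with EPC-Exos against 9.60, 9.56 and 9.46 with PBS, overlapped and gave -0.16 ± 0.077.

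DPP7, a lysosomal dipeptidyl peptidase with 4 probe sets, showed nearly equal groups in all of them. The brightest had log2 signals of 8.07, 8.21 and 8.11 with EPC-Exos, against 7.92, 8.17 and 8.32 with PBS. The EPC-Exos arrays lay inside the PBS range, and the 4 differences ran from -0.02 to -0.01. Since 3 of the 4 are _x_at probe sets, some of their signal can come from related transcripts. DPP3 had 8.43, 8.54 and 8.48 with EPC-Exos, against 8.35, 8.52 and 8.63 with PBS, with overlapping groups and a difference of -0.02 ± 0.078.

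**Figure D2:**
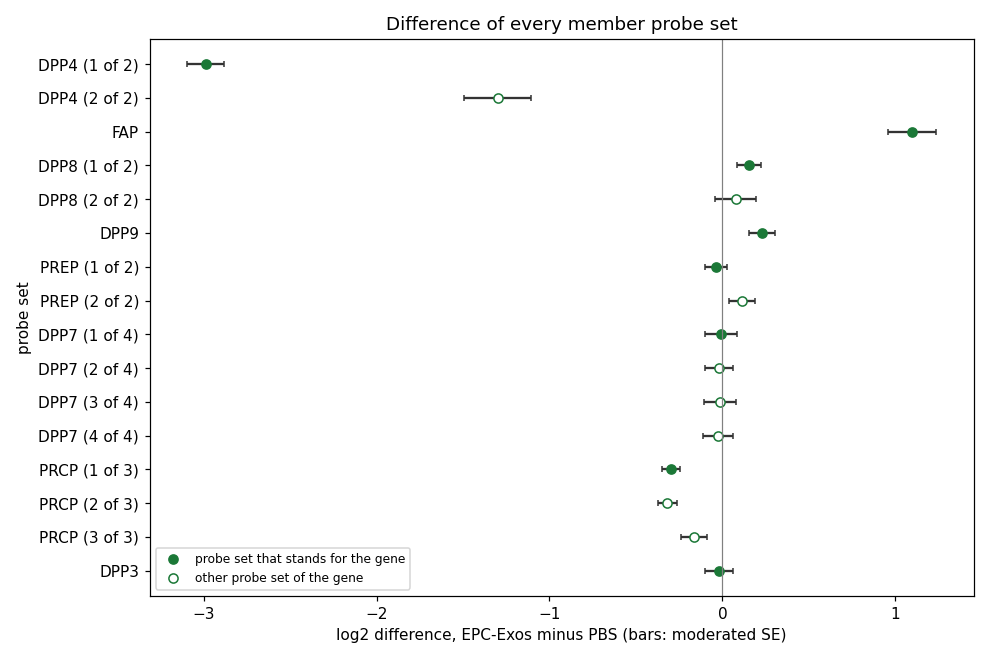
Log2 difference, EPC-Exos minus PBS, of all 16 member probe sets (horizontal axis) with moderated SE from a fit over all named probe sets; filled points are the probe sets that stand for their genes. The DPP4 probe sets lie at -2.99 and -1.30, FAP at 1.10, and all others between -0.32 and 0.23.

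Apart from DPP4 the tested members differed little between the groups. The median absolute log2 difference of the other 6 was 0.09, against 0.18 for all tested genes. Over the 16 probe sets, 4 passed downward and 2 upward in the fit over all named probe sets, where 28.7% passed, 15% downward and 13.8% upward. Within groups DPP4 had a pooled SD of 0.13, which exceeded that of 77.9% of tested genes. PRCP had the smallest SD of the 8 genes, 0.052, above that of 18.7% of tested genes. FAP, itself under the filter, had the largest, 0.22, above that of 98.2%.

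The tested genes whose values over the 6 arrays lay closest to those of DPP4 were sought by the root mean square distance between log2 signals, each taken relative to the gene's own PBS mean. The nearest of 11714 genes was TMT1A, a thiol methyltransferase gene, at a distance of 0.23, followed by OLFML2A, an olfactomedin-like extracellular protein gene, at 0.24. MSMO1 and HMGCS1, enzymes of cholesterol synthesis, lay at 0.25 and 0.27, and the integrin chain gene ITGB8 at 0.27, against a median distance of 2.11. TMT1A had log2 signals of 6.00, 6.30 and 6.03 with EPC-Exos, against 8.94, 9.14 and 8.92 with PBS. ITGB8 had 4.6, 4.58 and 4.27 with EPC-Exos, against 8.08, 7.40 and 7.39 with PBS. ITGB8 alone of these 5 reached the Tag level with EPC-Exos, as the probe set used for DPP4 did. These genes were picked for large differences like that of DPP4, so the resemblance is a description.

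**Figure D3:**
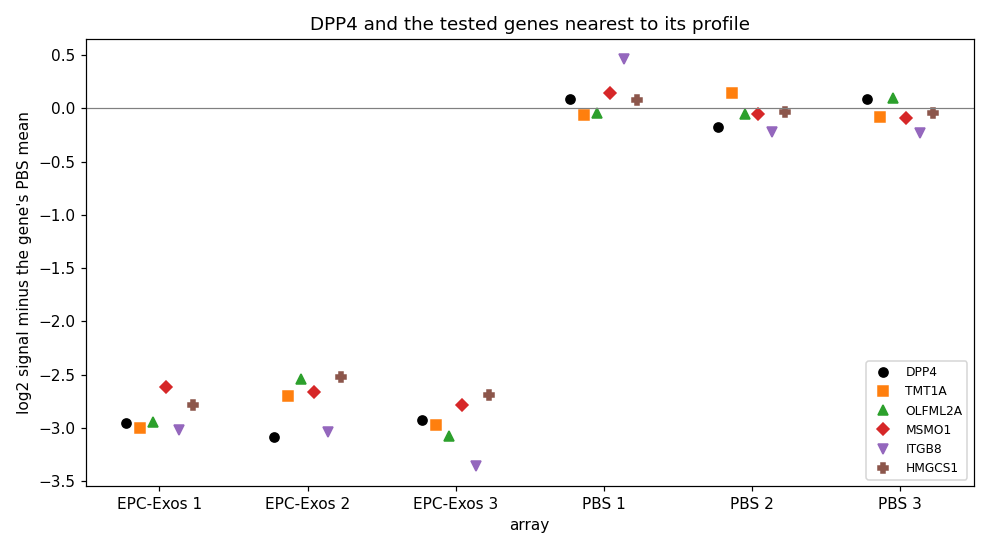
Log2 signal relative to each gene's PBS mean (vertical axis) on the 6 arrays (horizontal axis) for DPP4 (black) and the 5 tested genes nearest to it. On the EPC-Exos arrays DPP4 lies at -2.95, -3.09 and -2.93, and ITGB8 departs most from 0 among the PBS arrays, with 0.46 on PBS replicate 1.

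DPP4 and FAP lie close to each other on chromosome 2 with only GCG, the glucagon gene, between them in the RefSeq order of protein-coding genes. GCG also encodes the incretin GLP-1, a substrate of DPP4, and its log2 signal was at background, 3.47 ± 0.14 with EPC-Exos and 3.40 ± 0.17 with PBS. Of the 7 other genes from 3 before DPP4 to 3 after FAP, 3 were tested. IFIH1, an RNA sensor of the interferon response that follows FAP, had 7.28, 7.28 and 7.43 with EPC-Exos, against 6.26, 6.2 and 6.42 with PBS (1.04 ± 0.093, SE; limma adjusted p = 1.01e-07). PSMD14, a deubiquitinase of the proteasome lid, rose by a smaller amount (0.34 ± 0.041; adjusted p = 4.1e-06). GCA, a calcium-binding protein gene, differed by -0.07 ± 0.080 (adjusted p = 0.529). TBR1, SLC4A10, GCG and KCNH7 lay under the filter with overlapping groups. Of the tested genes of this stretch, DPP4 alone passed downward.

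**Figure D4:**
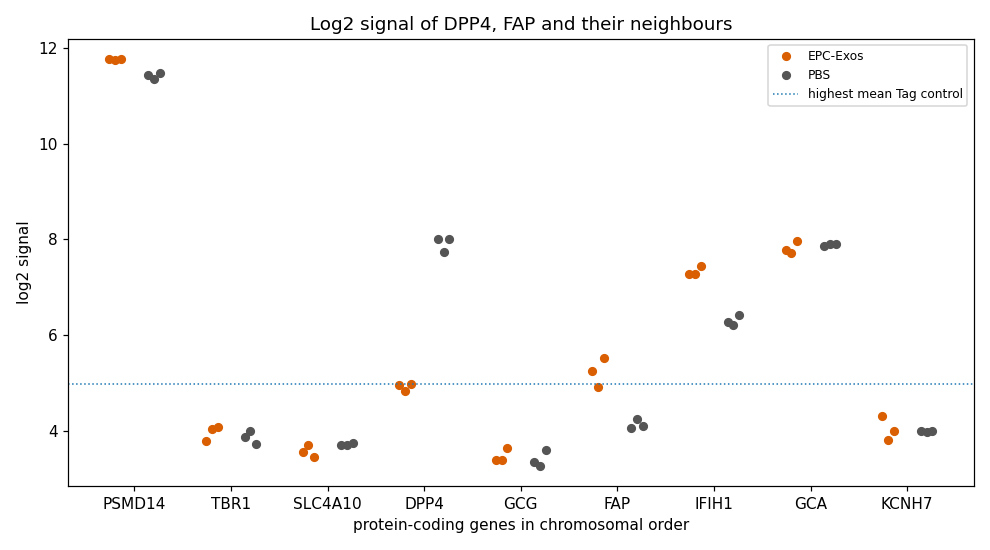
Log2 signal (vertical axis) of protein-coding genes in their order on chromosome 2 (horizontal axis, no scale), EPC-Exos arrays orange and PBS arrays grey; the dotted line is the highest mean Tag control signal. DPP4 is lower with EPC-Exos, FAP, IFIH1 and PSMD14 are higher, and TBR1, SLC4A10, GCG and KCNH7 stay under the line.

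The genes around these peptidases were taken from 9 textbook lists, of which 78 genes were tested and 59 passed. The lists were written with earlier results of these data known, and their counts are descriptions beside the background of 49.1%.

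Most genes that encode the listed substrates of DPP4 had signals at background. The peptides themselves were not measured. Of 25 listed substrate genes 23 were on the array and 6 were tested. Of the tested genes 4 rose and 0 fell, with a median log2 difference of 0.34. Of the 23 genes, 15 lay at or below the Tag level in both groups. FGF2, a fibroblast growth factor gene, had log2 signals of 9.12, 9.18 and 9.13 with EPC-Exos, against 8.13, 8.04 and 8.18 with PBS (1.03 ± 0.067, SE; limma adjusted p = 2.49e-09). CSF3, granulocyte colony-stimulating factor, rose by 0.91 ± 0.097 (adjusted p = 8.43e-07). CXCL12, the chemokine that guides progenitor cells through CXCR4, had 7.06, 6.85 and 6.93 with EPC-Exos, against 6.68, 6.51 and 6.41 with PBS (0.41 ± 0.098; adjusted p = 0.00212). Without _x_at and _s_at probe sets the CXCL12 difference was 0.15 and did not pass. HMGB1, a chromatin protein that acts as an alarm signal outside cells, passed at 0.28 ± 0.10 (adjusted p = 0.0342) with overlapping groups, and without PBS replicate 3 the difference was 0.09 and did not pass. It did not pass either without EPC-Exos replicate 1 (0.27) or without EPC-Exos replicate 2 (0.26). Once probe sets of the _x_at and _s_at kinds were left out, HMGB1 differed by 0.01 ± 0.072. The interferon-induced chemokine gene CXCL10 lay at background, 4.01 ± 0.11 with EPC-Exos and 3.79 ± 0.11 with PBS.

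Binding partners and matrix substrates of DPP4 and FAP moved both ways. Of 18 listed genes 10 were tested, 3 rose and 5 fell, with a median of -0.11. COL3A1, type III collagen, had log2 signals of 6.76, 6.92 and 6.71 with EPC-Exos, against 10.20, 10.22 and 10.24 with PBS (-3.42 ± 0.072; adjusted p = 1.77e-15). COL1A1, a chain of type I collagen that FAP can cut once denatured, fell by 0.67 ± 0.057 (adjusted p = 6.14e-08), the largest of its 5 probe sets, which ran from -0.67 to -0.06. CAV1, the caveolar protein that binds DPP4, fell by 0.53 ± 0.033 (adjusted p = 1.54e-09). ADA, the adenosine deaminase that DPP4 holds at the cell surface, had 9.60, 9.69 and 9.58 with EPC-Exos, against 9.14, 9.34 and 9.35 with PBS (0.35 ± 0.068; adjusted p = 0.000384). PLAUR, the urokinase receptor, rose by 1.53 ± 0.060 (adjusted p = 3.72e-12) and the integrin chain gene ITGA5 by 0.77 ± 0.058 (adjusted p = 1.45e-08). FN1, fibronectin, to which DPP4 binds, differed by -0.07 ± 0.036 (adjusted p = 0.134).

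Of 7 factors that have been reported to act on the DPP4 promoter 4 were tested, and 3 rose and 1 fell. NFKB1 rose by 0.28 ± 0.063 (adjusted p = 0.00158), RELA by 0.22 ± 0.057 (adjusted p = 0.00439) and HIF1A, the oxygen-sensing factor, by 0.21 ± 0.048 (adjusted p = 0.00162). SP1, the GC box factor, had log2 signals of 8.94, 9.06 and 8.96 with EPC-Exos, against 9.13, 9.27 and 9.26 with PBS (-0.24 ± 0.066; adjusted p = 0.0066). Without _x_at and _s_at probe sets neither SP1 nor RELA passed (-0.12 and 0.21).

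Other proline-specific and dipeptidyl enzymes were nearly all within a fold of 1.5. Of 9 tested relatives 1 rose and 4 fell; without EPC-Exos replicate 3, 1 rose and 2 fell. TPP1, a lysosomal tripeptidyl peptidase, had log2 signals of 9.10, 9.31 and 9.14 with EPC-Exos, against 9.70, 9.84 and 9.85 with PBS (-0.61 ± 0.068; adjusted p = 1.3e-06). Its probe sets differed in size, from -0.61 to -0.12, and without _x_at and _s_at probe sets it did not pass. PREPL, a relative of PREP, fell by 0.23 ± 0.065 (adjusted p = 0.0077) and did not pass without _x_at and _s_at probe sets (-0.07) or as the mean of its probe sets (-0.14). CTSC, the lysosomal dipeptidyl peptidase 1, rose by 0.22 ± 0.049 (adjusted p = 0.00129), but its probe sets ran from -0.57 to 0.34. DPP6 and DPP10, relatives of DPP4 that lack peptidase activity, lay at background, with 4.21 ± 0.050 and 3.39 ± 0.19 with EPC-Exos and 4.24 ± 0.14 and 3.47 ± 0.31 with PBS.

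Among other peptidases of the cell surface, 4 of 8 tested genes fell and 0 rose, with a median of -0.14. ECE1, the endothelin-converting enzyme, had log2 signals of 8.54, 8.57 and 8.55 with EPC-Exos, against 9.11, 9.22 and 9.28 with PBS (-0.65 ± 0.066; adjusted p = 4.34e-07). MME, neprilysin, fell by 0.36 ± 0.082 (adjusted p = 0.00144) and CPD, a carboxypeptidase, by 0.33 ± 0.067 (adjusted p = 0.000662). ANPEP, the aminopeptidase that follows DPP4 in the breakdown of many peptides, differed by 0.11 ± 0.062 (adjusted p = 0.147).

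Of 12 tested lysosomal peptidases, the class that works beside DPP7 and PRCP, 9 fell and 2 rose, with a median of -0.25. Only 6 of the 12 fell without EPC-Exos replicate 1, EPC-Exos replicate 3 or PBS replicate 3, each left out alone. The same count fell with no variance trend. CTSF and CTSO, cathepsins F and O, fell by 1.2 ± 0.11 and 1.17 ± 0.12 (adjusted p = 1.53e-07 and 4.44e-07). CTSL, cathepsin L, had 10.16, 10.23 and 10.10 with EPC-Exos, against 9.34, 9.34 and 9.28 with PBS (0.84 ± 0.057; adjusted p = 3.61e-09). The other member that rose was CTSS, cathepsin S (0.56 ± 0.11; adjusted p = 0.000568).

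Listed inflammasome genes, of which NLRP1 and CARD8 are the sensors that DPP8 and DPP9 hold in check, also moved both ways. Of 9 tested genes 3 rose and 4 fell. NLRP1, the sensor that DPP9 restrains, had log2 signals of 6.75, 6.99 and 6.82 with EPC-Exos, against 7.42, 7.33 and 7.41 with PBS (-0.54 ± 0.087; adjusted p = 7.75e-05). CARD8, the related sensor, differed by -0.13 ± 0.065 and did not pass (adjusted p = 0.101), and its 9 probe sets ran from -0.28 to 0.20. CASP1, the protease that inflammasomes activate, fell by 0.75 ± 0.084 (adjusted p = 1.33e-06), while the sensor gene NLRP3 rose by 0.90 ± 0.099 (adjusted p = 1.07e-06). IL1B, the cytokine that CASP1 matures, rose by 2.47 ± 0.078 (adjusted p = 2.79e-13). GSDMD, the pore protein cut by CASP1, differed by 0.04 ± 0.081 (adjusted p = 0.751).

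DPP3 can bind KEAP1 and so free the factor NRF2, encoded by NFE2L2, from it. Of 16 tested genes of this list 6 rose and 6 fell, with a median of 0.04; without EPC-Exos replicate 1, 5 rose and 3 fell. KEAP1 had equal groups, 9.58 ± 0.046 with EPC-Exos and 9.59 ± 0.078 with PBS (adjusted p = 0.903). NFE2L2 fell by 0.18 ± 0.056 (adjusted p = 0.014), and did not pass without EPC-Exos replicate 1 (-0.17) or without PBS replicate 1 (-0.10), nor with median centring (-0.15) or no variance trend (-0.18). GCLM, a subunit of the enzyme that starts glutathione synthesis, rose by 1.26 ± 0.057 (adjusted p = 2.48e-11) and SRXN1, sulfiredoxin, by 0.71 ± 0.061 (adjusted p = 7.01e-08). PGD, an enzyme of the pentose phosphate pathway, fell by 1.00 ± 0.067 (adjusted p = 3.26e-09).

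Most of the angiotensin and kinin system, whose peptides PRCP, PREP and DPP3 cut, was at background: 9 of 13 measured genes lay at or below the Tag level in both groups. Of the 4 tested 3 rose and 1 fell. NLN, neurolysin, a peptidase that cuts bradykinin and neurotensin, had log2 signals of 9.09, 9.15 and 9.11 with EPC-Exos, against 8.11, 8.10 and 8.28 with PBS (0.95 ± 0.070; adjusted p = 1.01e-08). F12, coagulation factor XII, which starts kinin release, rose by 0.42 ± 0.079 (adjusted p = 0.000309). ATP6AP2, the prorenin receptor, fell by 0.35 ± 0.054 (adjusted p = 4.87e-05).

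**Figure D5:**
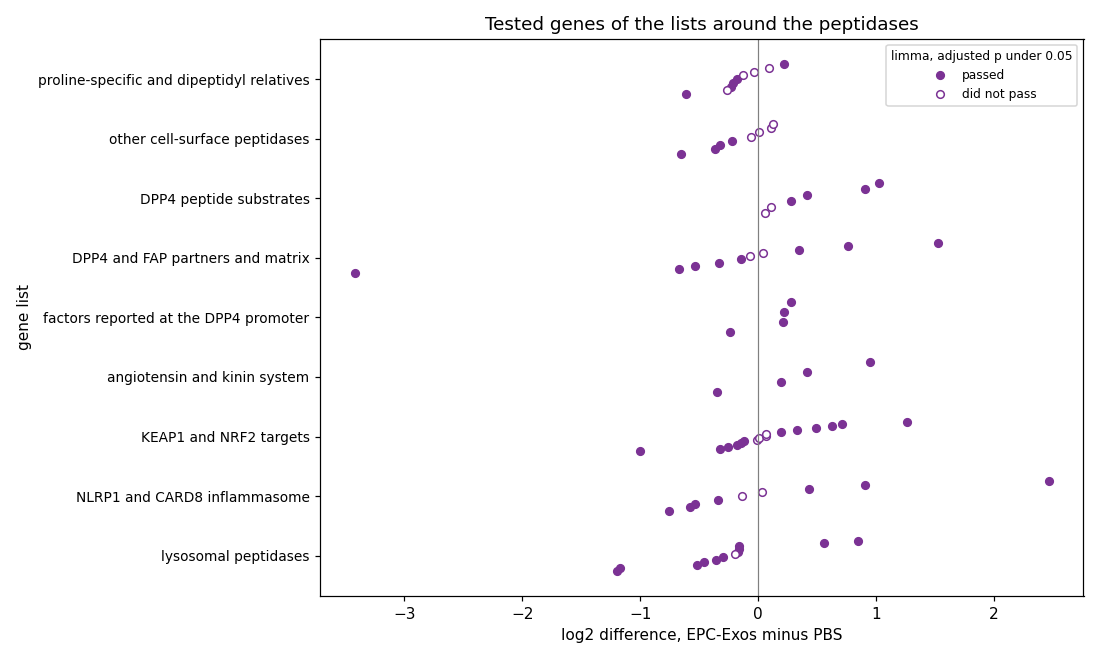
Log2 difference, EPC-Exos minus PBS (horizontal axis), of the tested genes of the 9 lists (vertical axis); filled points passed at an adjusted p under 0.05 in limma. COL3A1 at -3.42 and IL1B at 2.47 are the farthest points, and most others lie between -1.2 and 1.26.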

How the data were processed

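The values deposited by the authors are log2 signals of probe sets, 1 column per array, and their range of 2.47 to 14.52 gave the scale. The submitters' processing notes name MAS5, an Affymetrix summary method, but not the step it was used for; other steps are not given in the sources used here. No further normalization was applied. The precision is limited by the number of arrays.

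Of the probe sets, 44988 had 1 gene symbol, 1832 several and 2473 none, and 102 were controls. The probe set with the highest 6-array mean stood for its gene. Differences are log2 signal with EPC-Exos minus PBS, fitted with limma 3.58.1 in R 4.3.3 (lmFit, eBayes with a variance trend), two-sided, with the group as the only term. The fit was tested on simulated data. FAP and other genes under the filter come from the same fit without it.

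The members and lists were chosen with earlier results of these data known. Named genes were all members, up to 3 passing genes of each list by size, the 5 genes nearest to DPP4 and the chromosomal neighbours; all others were named after their values were seen. Alternatives were other scalings, offsets, filters, probe set rules, variance settings, the replicate block and leaving out each array.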

Additional observations from a re-analysis of the deposited data

How the results depend on the processing

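The number of genes that passed, 5748 in the main setting, ran from 4849 without _x_at and _s_at probe sets to 6118 with the replicate block, and from 4959 to 5671 when 1 array was left out. Between 2 and 4 members passed, and between 48 and 62 genes of the lists. DPP4 was lower and FAP higher in every alternative in which they were fitted, from -3.08 to -1.30 and from 0.32 to 1.25; no value for FAP exists with the filter at the 60th percentile, nor for DPP4, whose mean also lay under it, and none for DPP9 without _x_at and _s_at probe sets. PRCP ran from -0.33 to -0.26, while DPP3, DPP7 and PREP changed sign between alternatives without passing in any. DPP8 passed with array weights (0.20) and with the replicate block (0.15).

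Both groups carry replicate numbers 1 to 3. Deviations of same-numbered arrays from their group means correlated at 0.0770 to 0.201, and every array correlated best with its own number; since 1 pair fell under 0.1, the numbers were not taken as pairing. With the replicate block 6118 genes and 4 members passed.

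For 64 of the other named genes, 1084 of 1104 values under alternatives kept their call. Direction was not always kept by genes that did not pass in the main setting. KEAP1, for example, ran from -0.04 to 0.03 without passing. CTSC turned to -0.0032 with the mean of its probe sets, which differ in direction; 18 values no longer passed, and FN1 passed with cyclic loess (-0.10). HMGB1 also did not pass with quantile normalization (0.26), cyclic loess (0.25), median centring (0.30) or no variance trend (0.28), and the cause was not tested.

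Counts of single lists moved under several alternatives, with or without a change in the number of tested genes. Without _x_at and _s_at probe sets, 2 DPP4 substrates rose, 1 of 7 tested relatives fell and 1 rose, 2 promoter factors rose and 0 fell, 1 fibroblast and pericyte marker fell and 1 rose, and 0 of 1 epithelial markers fell. With the filter at the 60th percentile, 2 substrates rose, 6 lysosomal peptidases fell and 1 rose, and of the fibroblast and pericyte markers 0 fell and 1 rose. With the mean of probe sets, 3 genes of the KEAP1 list fell and 6 rose, and 8 lysosomal peptidases fell and 1 rose. With no variance trend, 3 genes of the KEAP1 list fell and 5 rose.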

Other observations

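Among the PBS arrays, replicate 1 held the lowest log2 signal of 6 of the 8 peptidase genes, and of 47.6% of all tested genes. Among the EPC-Exos arrays the lowest value fell on replicate 1 for 3 of the 8, on replicate 2 for 2 and on replicate 3 for 3.

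IL18, a cytokine that CASP1 matures, lay under the signal filter. It had a log2 signal of 4.24 ± 0.040 with EPC-Exos and 5.33 ± 0.23 with PBS (limma adjusted p = 9.78e-07 in the fit without the filter), the opposite direction to IL1B. The EPC-Exos mean of IL18 lay below the highest Tag control signal. Its difference ran from -1.20 to -0.33 over the alternatives, so the size is uncertain.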
